A study of Drosophila melanogaster with 4 samples.

Results

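The 571 peaks described here are all the peaks that a chromatin immunoprecipitation sequencing (ChIP-seq) experiment on the Hox protein Deformed (Dfd) gave on U, the unplaced sequence of the Drosophila melanogaster release 5 assembly. They were chosen by the sequence name alone, whatever their score, and make up 7.43% of the 7683 peaks of the list (exact 95% binomial interval 6.86 to 8.04%). The series holds 4 libraries, 2 of DNA recovered with a rabbit polyclonal antibody against green fluorescent protein (GFP ab290) and 2 of input DNA. All 4 came from embryos labelled 0 to 8 h of the strain Dfd-GFP-Pacman, which carries a Dfd genomic transgene with GFP in place of the stop codon. The labels give PBac{y[+]-attP-3B}VK00037 as its genotype, and the sex of the embryos is unknown. The input shares the strain and the transgene with the ChIP, and none of the 4 libraries is labelled as coming from flies without GFP. The collection protocol in the labels names another window, 8 to 16 h, and another stock, y; bw cn sp; stage and strain are given here as labelled. The whole embryo was used, so the list does not say in which cells a region was bound. The sources used here do not say whether the replicate libraries came from separate collections.

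Dfd is a homeodomain transcription factor that gives the mandibular and maxillary segments of the embryonic head their identity, and the assay asks where the tagged protein sits on chromatin. U is not a chromosome. It is a string of scaffolds that the assembly could not place, much of it from heterochromatin, the compact and gene-poor chromatin around centromeres and on the Y chromosome, where transposable elements and satellite repeats are common. Neighbouring positions on U can therefore lie on different scaffolds, and a distance between 2 peaks that crosses a junction is not a distance on a chromosome. Short reads from repeated sequence can match several copies, and the sources used here do not say how such reads were assigned. The scaffold junctions, the genes and the repeats of U were not analysed here, and no peak is assigned to a gene.

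A peak of the list has a start, an end and a score, and no value of any single library. The score was read as −log10 p of enrichment over the peak caller's background, so that higher means stronger evidence of enrichment. Peaks on U had a median score of 13.37 (exact order-statistic 95% interval 12.82 to 13.7), quartiles of 10.6 and 17.365, and a range from 6.52 to 135.18. Their median width was 341 bp, with quartiles of 260.5 and 522 bp and a range from 201 to 1903 bp. Together they covered 239.5 kb, or 2.40% of the 9.99 Mb from the first to the last peak of U. Replicates cannot be compared in such a list. Intervals therefore cover counting error among peaks only, peaks are not independent replicates, and no test between groups of peaks was run.

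Most U peaks were weak and a few were strong. Scores below 10 were found for 110 peaks (19.3%), scores from 10 to below 15 for 252 (44.1%), and scores from 15 to below 20 for 119 (20.8%). Another 43 peaks (7.53%) scored from 20 to below 30, and 33 (5.78%) scored from 30 to below the strong limit. In the whole list these bands held, in the same order, 16.6%, 42.5%, 17.7%, 7.22% and 5.90% of the peaks. Weak peaks were thus the majority there too. Strong peaks are those in the top 10% of the whole list, which begins at a score of 52.26. On U, 14 of 571 peaks were strong (2.45%, exact interval 1.35 to 4.08%), against 10.0% of the whole list, or 770 of 7683 peaks. Higher score bands had wider peaks: the median width was 265 bp below 10, 329 bp from 10 to below 15, 415 bp from 15 to below 20 and 586.5 bp for strong peaks. Across the 571 peaks, Spearman's rho between score and width was 0.44, a description in which both values come from the same caller.

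Strong peaks were a smaller share of the peaks on U than on the other sequence classes, although the medians lay close together. The median score was 13.37 on U, 13.49 on Uextra (the second collection of unplaced scaffolds), 12.58 on the scaffolds of placed heterochromatin (Het) and 14.31 on the 6 chromosome arms. Strong peaks made up 8.07% of the 4114 Uextra peaks (interval 7.26 to 8.94%), 7.59% of the 369 Het peaks (5.10 to 10.8%) and 15.0% of the 2625 arm peaks (13.7 to 16.5%). None of these 3 intervals overlapped that of U, but they cover counting error only and treat peaks as independent. The difference itself was not tested. Within Het, strong peaks were 1 of 28 on 2LHet, 12 of 141 on 2RHet and 9 of 108 on 3LHet. They were 6 of 86 on 3RHet, with none among the 2 on XHet and the 4 on YHet. Peaks of 15 or more made up 36.6% on U, 38.3% on Uextra, 34.7% on Het and 46.6% on the arms. At 30 or more the shares were 8.23% on U, 12.2% on Uextra, 14.6% on Het and 23.6% on the arms. The highest peak on U scored 135.18, against 281.55 on Uextra, 411.64 on Het and 678.18 on the arms. With strong defined as the top 5% of the list, 4 U peaks (0.70%) passed, against 2.84% on Uextra, 5.42% on Het and 9.26% on the arms.

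**Figure D1:**
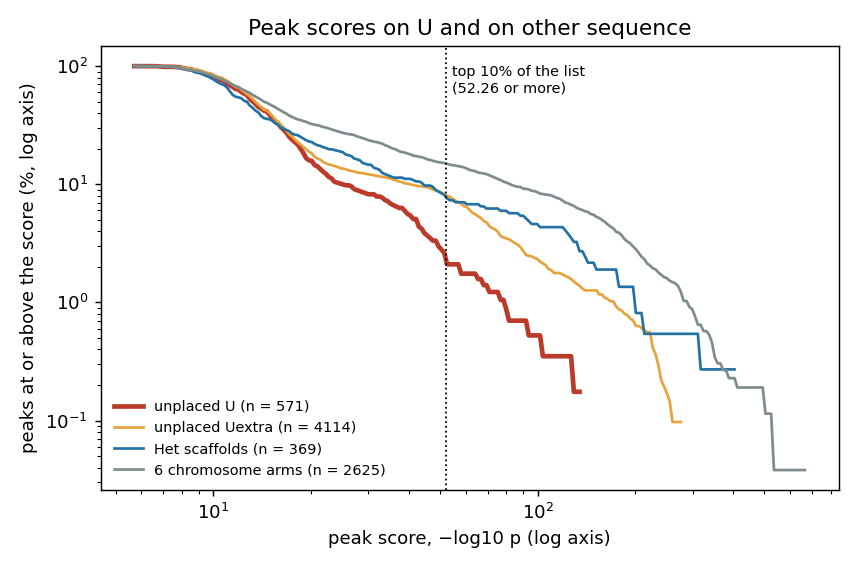
Share of peaks (%, log axis) at or above each score (−log10 p, log axis) on U, Uextra, the Het scaffolds and the 6 arms, 1 line per class. At a score of 15 the line of U (36.6%) lies between those of Het (34.7%) and Uextra (38.3%), with the arms above at 46.6%. At the dotted limit of 52.26 U stands at 2.45%, below Uextra at 8.07%, Het at 7.59% and the arms at 15.0%.

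For part of the list the score could be turned into a fold over background. A score that equals −log10 of the upper tail of a Poisson distribution with a mean of 80.06 gives the number of fragments piled up at the most enriched point. That rate, inferred from the values, matched 3871 of the 7683 scores to 2 decimals, and 345 of the 571 on U (60.4%). The matched U peaks had a median pileup of 1.92-fold over the rate (quartiles 1.80 and 2.05, range 1.60 to 4.72). The median was also 1.92 on Uextra, and it was 1.91 on Het and 2.00 on the arms. Scores on U fell on few values, with 233 distinct scores among 571 peaks. The most common, 12.82, was shared by 17 peaks and corresponds to a pileup of 153 fragments. An unmatched score can belong to the same rate, so these values describe matched peaks alone.

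Position along U was uneven, and most peaks lay in its last 4 Mb. The lower quartile, the median and the upper quartile of the peak midpoints fell at bases 6704255, 7816878 and 8463841. The 2 Mb from 7 to 9 Mb held 336 peaks, or 58.8% of all U peaks, with 162 in the first of these 1-Mb intervals and 174 in the second. The 4 Mb from 2 to 6 Mb held 46 peaks (8.06%), with 14, 14, 11 and 7 per Mb. The first 2 intervals held 29 and 34 peaks, the interval from 6 to 7 Mb held 49, and that from 9 to 10 Mb held 74. Between the highest and the lowest of the 10 full intervals the number of peaks differed 24.9-fold. Peaks covered 7.70% of the bases from 8 to 9 Mb and 0.255% of those from 5 to 6 Mb. The first peak of U began at base 47564 and the last ended at base 10033264.

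**Figure D2:**
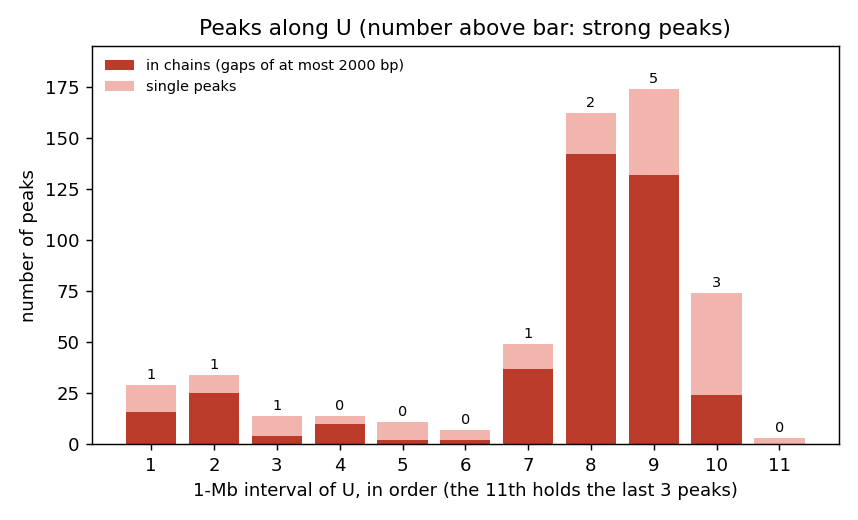
Number of peaks in each consecutive 1-Mb interval of U, split into peaks in chains (dark) and single peaks (light), with the number of strong peaks above each bar. Intervals 8 and 9 hold 162 and 174 peaks, interval 6 holds 7, and the 14 strong peaks are spread over 7 intervals.

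On the scale of 100 kb the same unevenness held. Of 100 windows, 20 held no peak, the median was 3 peaks, and 19 held 10 or more. These 19 windows had 341 of the 571 peaks, and 17 of them lay among the 20 windows from 7 to 9 Mb, none of which was empty. The fullest window, bases 8100001 to 8200000, held 33 peaks with a median score of 13.4 and no strong peak. It was followed by the windows from bases 7700001 and 7800001, with 27 peaks each. The widest stretches without a peak lay in the sparse middle. The longest ran for 422 kb, from base 4880850 to base 5303197. The others of the 5 widest were 280 kb from base 4342189, 245 kb from base 5578465, 239 kb from base 1927955 and 210 kb from base 3230418.

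Where peaks were dense, high scores were rarer, although the medians were alike. The median score was 13.4 in the 336 peaks from 7 to 9 Mb (interval 12.82 to 14.02) and 13.11 in the other 235 (11.97 to 14.01). Scores of 30 or more were found for 13 of the 336 (3.87%) and for 34 of the 235 (14.5%). Strong peaks numbered 7 in each, or 2.08% and 2.98%, with intervals of 0.842 to 4.25% and 1.21 to 6.04% that overlap. The band from 30 to below 52.26 made most of the contrast, with 6 of its 33 peaks from 7 to 9 Mb. Peaks were slightly wider in the dense stretch, with a median of 362.5 bp against 325 bp. Scores matched the common background rate for 68.5% of its peaks and for 48.9% of the rest. The boundaries of the dense stretch were taken from the peaks themselves, and the contrast was not tested.

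Close neighbours were common on U. Gaps were measured edge to edge, and the 570 gaps had a median of 3544.5 bp, with quartiles of 496 and 13211 bp and a range from 50 to 422348 bp. Of these, 99 (17.4%) were at most 250 bp, 248 (43.5%) at most 2000 bp, and 47 (8.25%) over 50000 bp. Beyond 2000 bp the number of gaps per kb declined slowly, from 23 between 2000 and 3000 bp to 14 between 5000 and 6000 bp. It stood at 16 to 19 in each kb from 6000 to 10000 bp and at 10 in the next. The range from 6000 to 10000 bp, chosen after seeing the data, held 73 gaps, 49 of them after peaks between 7 and 9 Mb. That stretch held 58.8% of all U peaks. Gaps of at most 250 bp were 1.70% of the 4113 on Uextra, 11.3% of the 363 on Het and 15.8% of the 2619 on the arms. Gaps of at most 2000 bp were 29.3% on Uextra, 43.0% on Het, 47.6% on the arms and 37.3% in the whole list. Gaps over 50000 bp were 0.316% on Uextra, 15.2% on Het and 26.4% on the arms. The share on U was closest to that of the arms at 250 bp and to that of Het at 2000 bp. Over 50000 bp it lay between those of Uextra and Het. The class differences were not tested, and on U and Uextra the gaps include any that cross scaffold junctions.

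**Figure D3:**
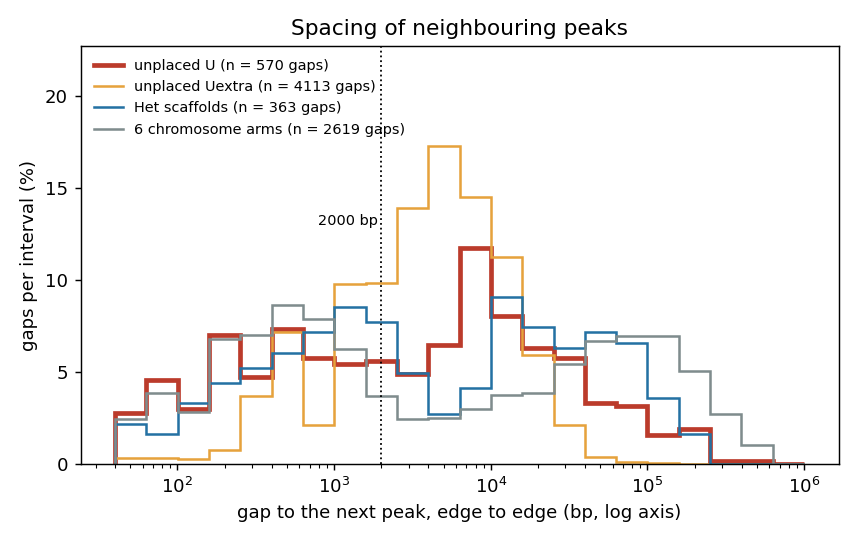
Gaps between neighbouring peaks (bp, edge to edge, log axis) as a share of all gaps in each class (%), in intervals of equal width on the log axis. The line of U has a broad shoulder below 2000 bp (dotted), where 43.5% of its gaps lie, and its highest interval ends near 10000 bp. The line of Uextra is low below 250 bp, where it holds 1.70% of its gaps.

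Chains are series of peaks with gaps of at most 2000 bp. They held 394 of the 571 U peaks (69.0%, interval 65.0 to 72.8%), in 146 chains, and the other 177 (31.0%) stood single. On Uextra 49.7% of peaks were in chains, on Het 64.2%, on the arms 61.9% and in the whole list 56.0%. Most chains on U were small. Of the 146, 92 were pairs (63.0%), 33 had 3 peaks, 9 had 4, and 12 had 5 or more. Pairs made up 61.7% of the chains in the whole list, 70.3% on Uextra, 54.3% on Het and 43.8% on the arms. Chains of 5 or more held 75 U peaks (13.1%), against 36.8% of the arm peaks, 11.7% of the Het peaks and 3.60% of the Uextra peaks. Over the whole list the share was 16.0%. The median chain on U was 1668 bp long, with quartiles of 1064 and 2552 bp. Pairs ran from 522 to 3769 bp, with a median of 1208 bp. The 248 gaps inside chains had a median of 392.5 bp (quartiles 171.5 and 857 bp), and peaks covered 54.7% of the 306.6 kb that chains spanned. From 7 to 9 Mb, 81.5% of the peaks were in chains, against 51.1% elsewhere on U. That stretch was taken for its many peaks, and its median gap was 1604 bp, against 9798 bp elsewhere. A higher share in chains there follows from that choice.

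Of the 12 chains of 5 or more peaks, 11 lay between bases 7064451 and 8325716, inside the stretch taken for its many peaks. The exception, at bases 88158 to 94821, held 6 peaks, spanned 6664 bp and had the weakest set of scores, from 8.23 to 12.58. The 2 chains with most peaks held 9 each. One spanned 8973 bp from base 8161001, with scores from 9.31 to 27.97, and the other 7756 bp from base 7811938, with scores from 8.09 to 22.19. A chain of 7 peaks spanned 4069 bp from base 7245870 and reached 18.28. Chains of 6 peaks began at bases 7136732, 8106570, 8184193 and 8216497, with lengths of 4976, 4477, 5185 and 7007 bp. Their highest scores were 18.28, 17.12, 19.12 and 23.38. Chains of 5 peaks began at bases 7064451, 7406335, 7718199 and 8321170, with lengths of 4650, 4624, 4254 and 4547 bp. These reached 19.8, 16.8, 18.78 and 16.48. The 5 longest chains of U were 4 of these 12, those over 6 kb, and a chain of 4 peaks that spanned 5459 bp at bases 9778387 to 9783845 and reached 22.28.

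None of the 75 peaks in these larger chains was strong, 5 scored 20 or more, and the median was 13.4. Among all 571 U peaks 14 were strong (2.45%), 90 scored 20 or more (15.8%), and the median was 13.37. Among the 394 peaks in chains of any size 1.27% were strong. With so few strong peaks on U, their absence from 75 peaks was not tested. Of the 12 chains, 8 were between 4.07 and 5.18 kb long, and the median length was 4813 bp. Chains of 5 or more had a median length of 8261 bp on the arms (114 chains), 6688 bp on Uextra (26) and 8650.5 bp on Het (6). Of the 12 on U, 3 were between 7 and 10 kb long, against 9 of the 26 on Uextra, 5 of the 6 on Het and 76 of the 114 on the arms. Peaks covered between 28.1 and 64.3% of a chain, with a median of 45.8%. Gaps varied inside these chains. For example, in the chain from base 7245870 the gaps were 87, 78, 206, 155, 631 and 581 bp. In the chain from base 88158 they were 1500, 917, 413, 1361 and 604 bp. A regular step between peaks was not tested for.

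**Figure D4:**
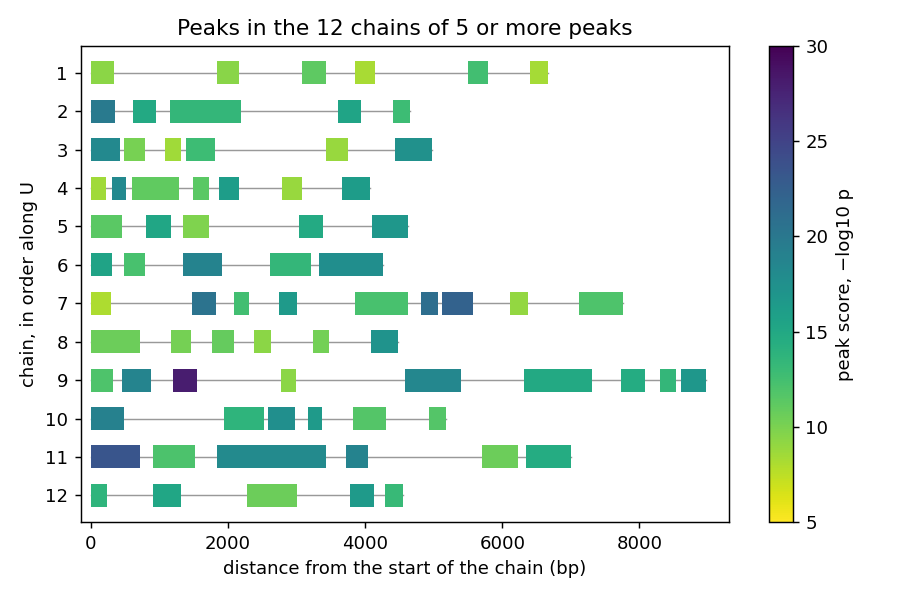
Layout of the 12 chains of 5 or more peaks on U, each drawn from its own start (distance in bp), with peaks as boxes to scale and coloured by score (−log10 p). The darkest box is the peak of 27.97 in chain 9, and chains 7 and 9, with 9 peaks each, are the longest.

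Scores of neighbours were compared inside and outside chains. The absolute difference in score across the 248 gaps inside chains was a median of 3.91 (quartiles 1.65 and 6.97). Across the 322 wider gaps it was 4.80 (1.95 and 12.5). Within a chain the highest score was a median of 1.45 times the lowest and at most 6.88 times. In the 54 chains of 3 or more peaks, the highest peak came first in 21, last in 13 and inside in 20. Single peaks and chain peaks had like medians, 12.98 for the 177 single peaks (interval 12.25 to 14.6) and 13.4 for the 394 in chains (12.82 to 14). They differed at the top of the range. Scores of 30 or more were reached by 30 single peaks (16.9%) and by 17 in chains (4.31%). Strong peaks were 9 of 177 (5.08%, interval 2.35 to 9.43%) and 5 of 394 (1.27%, interval 0.413 to 2.94%), intervals that overlap. On the arms the strong share was 30.3% among single peaks and 5.66% in chains, and on Het it was 12.1% and 5.06%. On Uextra the order was the other way, with 7.58% among single peaks and 8.57% in chains. Of the 30 single U peaks of 30 or more, 26 lay outside 7 to 9 Mb, where 22.6% of the 115 single peaks reached that score.

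The 14 strong peaks were unevenly spread along U, as all its peaks were. One lay in the first Mb, and 1 each lay in the intervals from 1 to 2, from 2 to 3 and from 6 to 7 Mb. The interval from 7 to 8 Mb held 2, that from 8 to 9 Mb held 5, and that from 9 to 10 Mb held 3. Their median score was 72.7 and their median width 586.5 bp, from 451 to 1376 bp, against a median width of 337 bp for the other U peaks. The highest of them ranked 227 by score in the whole list of 7683 peaks, and the lowest 765. The 6 strong peaks whose score matched the common background rate had pileups between 3.26-fold and 4.72-fold over it. Since scores chose these peaks, the values describe them and test nothing.

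The highest peak of U, at bases 1097161 to 1098536, scored 135.18 and was 1376 bp wide, the fourth widest of U. It had 4 other peaks within 10 kb, counted between midpoints, and these scored 38.67, 20.39, 43.55 and 22.84. It is the strong peak with the highest scores around it, apart from the adjoining pair described next. The second, at bases 8770719 to 8771964, scored 127.67 over 1246 bp with a pileup of 4.72-fold, and stood alone, with no midpoint of another peak within 10 kb. The third, at bases 9341369 to 9341940, scored 103.47 over 572 bp and was also alone, 12.0 kb from its nearest neighbour. The peak at bases 2902932 to 2903382 scored 75.81. It was the narrowest of the strong peaks at 451 bp and the most isolated, 56.4 kb from the nearest peak.

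A single pair of strong peaks adjoined each other. The peaks at bases 8910388 to 8911405 and 8911676 to 8912398 were 270 bp apart, scored 79.25 and 80.98 and were 1018 and 723 bp wide. They form a chain of their own, the only one on U with 2 strong peaks. In 3 other chains, each a pair, a strong peak stood beside one below the strong limit. They were 92.91 at bases 7859549 to 7860103 beside 13.73, 57.34 at bases 8354130 to 8354730 beside 8.33, and the highest peak beside 20.39. The first 2 of these neighbours began 392 and 309 bp away.

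The remaining strong peaks stood single. Those at bases 6290149 to 6290840 (69.64), 9773576 to 9774121 (67.98) and 7871178 to 7872469 (64.18) had other peaks within 10 kb, 5, 4 and 5 in number, with highest scores of 13.7, 22.28 and 15.49. The last of these was 1292 bp wide, and 2 strong peaks, 92.91 and 64.18, were 11.1 kb apart there. The peak at bases 9538439 to 9538927 scored 57.74, and that at bases 8645681 to 8646223 scored 52.27. The peak at bases 543737 to 544305 scored exactly the limit, 52.26. Just outside it lay peaks of 51.76 at bases 9062551 to 9062864, 51.29 at bases 6693108 to 6693823 and 49.78 at bases 9291980 to 9292364. Just inside were 52.26, 52.27 and 57.34. Around the 14 strong peaks, 3 had no peak within 10 kb, the median was 3 and the most was 5.

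**Figure D5:**
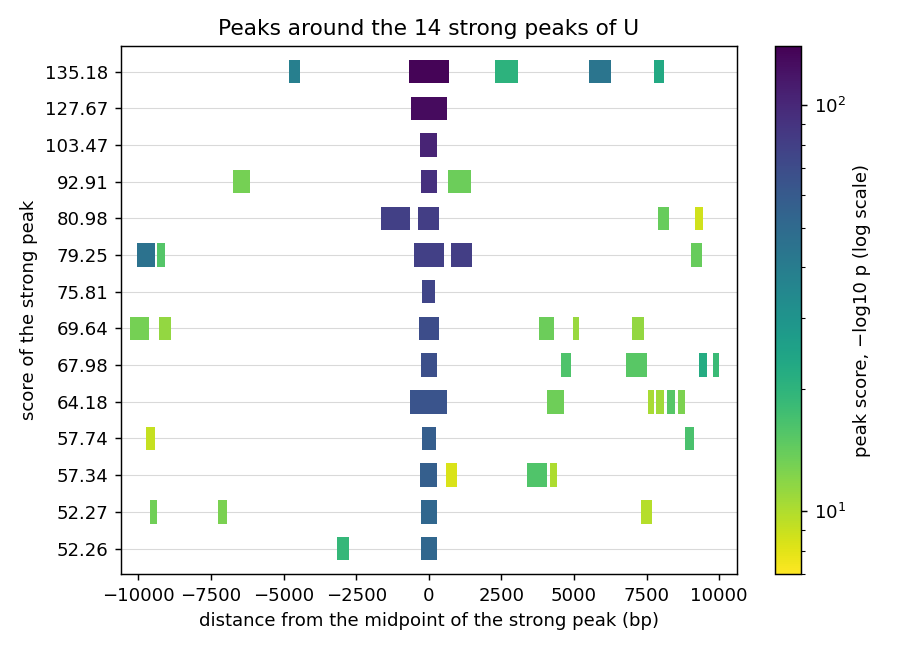
Peaks within 10 kb of the midpoint of each of the 14 strong peaks of U (distance in bp), ordered by score from 135.18 to 52.26, with boxes to scale and coloured by score (log scale). The rows of 127.67, 103.47 and 75.81 hold no other peak, and the rows of 80.98 and 79.25 show the adjoining strong pair.

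The 5 widest peaks of U held strong peaks and peaks below the strong limit, while 2.45% of all 571 U peaks were strong. The widest, 1903 bp at bases 2712111 to 2714013, scored 33.27, and the next, 1669 bp at bases 1543709 to 1545377, scored 22.10. The third, 1596 bp at bases 8218335 to 8219930, scored 18.11, with a pileup of 2.12-fold, inside the 6-peak chain from base 8216497. The others of the 5 widest were the strong peaks of 135.18 and 64.18. Only 13 U peaks were over 1000 bp wide, among them the strong peaks of 135.18, 127.67, 79.25 and 64.18. A width of 201 bp, the smallest in the list, was found for 11 U peaks.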

How the data were processed

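ChIP and input libraries (2 each) were grouped by their titles. The tools named in the submitters' processing notes are MACS2, BWA and CASAVA (versions 1.7.0.2 and 1.7.0.3), and the build named is BDGP5. Per the file headers, the authors' list is on FlyBase release 5 with MACS as source; the sources used here do not give its threshold, whether replicates were pooled, or the read depth. The deposited score was read as −log10 of an unadjusted p, a unit inferred from the values: rates from 20 to 400 in steps of 0.01 were compared with the scores to 2 decimals, and 80.06 matched most (3871, against a median of 340 over all rates). A pileup is the number that the tail lies strictly above.

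Peaks on U were taken by sequence name. Gaps, chains, shares with exact Clopper-Pearson 95% intervals and medians with binomial order-statistic intervals were computed in Python 3.11.15 with pandas 2.3.3, numpy 2.4.6 and scipy 1.17.1. The functions were tested on simulated data. Named peaks are all strong ones, the 3 on either side of the strong limit, the 5 widest, the first and the last; named chains are those with 5 or more peaks, which settles a tie at the tenth and adds 2, and the longest; named stretches are the 5 widest gaps. The peaks, the chain rule and the strong limit were chosen with earlier results of these data known. A gap table by kb and the stretch from 7 to 9 Mb were added after seeing the data. Sequence, genes and repeats were not used here.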

Additional observations from a re-analysis of the deposited data

How the results depend on the processing

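Of 21 alternative settings, 7 left a value inside its interval (counts: within 1.5 times) and 14 moved it further. The values are counts, shares, medians and a ratio, which have no direction that a setting could turn. Limiting the list by score left 270 U peaks in its top 50% and 14 in its top 10%, by construction; in the top 50% the median width was 429 bp, the median gap 9647 bp and the share in chains 44.8%. Merging peaks within 1000 bp on every sequence gave U 6.45% of the regions and a median highest score of 14.6, while the strong share was 3.51% on U against 9.17% on Uextra, 10.4% on Het and 23.5% on the arms. The share in chains was 59.4% with gaps of at most 1000 bp, 77.6% with 5000 bp, 13.1% for chains of 5 or more, and 51.1% without the stretch from 7 to 9 Mb, a setting chosen after seeing the data. Strong peaks numbered 4 at the top 5% and 66 at the top 20%, by construction; at the top 20% the share was 11.6% on U, 14.8% on Uextra, 20.1% on Het and 29.9% on the arms. The ratio of fullest to emptiest interval was 114 in bins of 500 kb, where the emptiest held 1 peak, and 13.8 in bins of 2 Mb (248 against 18 peaks). Read depth is unknown. No paired analysis was possible because peaks carry no values of single libraries, and leaving out each replicate was not run for the same reason.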
